A study of Mus musculus with 2 samples.

Results

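The genes described here start in the 20 Mb of mouse chromosome 4 that end at 145 Mb (GRCm38), from *Gnl2* to *Vps13d*. They were chosen by position and by a minimum of 100 counts summed over both libraries, and 6 of the 217 genes that meet this rule were left out by it. This leaves 211 genes of the 13587 with at least 100 counts in the genome, out of 55573 annotated rows. The stretch itself was chosen because genes with lower values had been seen in it in these same libraries, so its share of lower genes is given as a description and supports nothing by itself. Of the 614 rows that start in the stretch, 397 had fewer than 100 counts and 230 had none in either library.

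RNA-seq of hippocampal tissue compared 1 library of *Cdh5-CreERT2;CDK5f/f* mice, which the labels mark as tamoxifen-treated, with 1 library of *CDK5f/f* mice, marked as untreated. Both carry the floxed *CDK5* allele on a C57BL/6 background, and the design text names the CA1 region. *Cdh5-CreERT2* places a tamoxifen-inducible Cre recombinase under an endothelial promoter, so the deletion is aimed at a minority of the cells in the tissue. How many mice stand behind each library, and their age at RNA extraction, is not stated for these libraries. With 1 library per genotype no difference below has a replicate check, a test or a p-value. The intervals given are exact 95% intervals of the ratio of counts per library total, and they cover counting error only.

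The libraries held 18900847 counts in *Cdh5-CreERT2;CDK5f/f* mice and 19451827 counts in *CDK5f/f* mice. Genotype, treatment and sex differed together and cannot be told apart, since *Xist*, which is transcribed from the inactive X chromosome of females, had 34 counts in *Cdh5-CreERT2;CDK5f/f* mice and 15070 in *CDK5f/f* mice, and the Y-linked gene *Ddx3y* had 771 counts in *Cdh5-CreERT2;CDK5f/f* mice and 0 in *CDK5f/f* mice. All 13 choroid plexus markers were higher in *Cdh5-CreERT2;CDK5f/f* mice, with a summed level of 3910 FPKM against 174 FPKM in *CDK5f/f* mice, and none was at 0 in either library. Of 6 pituitary markers, 4 were at 0 in *Cdh5-CreERT2;CDK5f/f* mice and 1 in *CDK5f/f* mice, and their summed level was 1.08 FPKM in *Cdh5-CreERT2;CDK5f/f* mice and 14.1 FPKM in *CDK5f/f* mice. Most of the sum in *CDK5f/f* mice came from *Prl* (8.62 FPKM) and *Gh* (4.17 FPKM). *Tshb* had a ratio of 0.997 (0.588 to 1.69), *Pomc* had 1.42 (0.66 to 3.16), and *Lhb* had 0 counts in both libraries. The 8 markers of hippocampal pyramidal and granule neurons were present in both libraries, at 814 FPKM in *Cdh5-CreERT2;CDK5f/f* mice and 862 FPKM in *CDK5f/f* mice, and none was at 0. Single neuronal markers differed more than this sum. Of the 8, 6 had a ratio below 1, among them *Prox1* at 0.783 (0.732 to 0.836), and 2 above, among them *Wfs1* at 1.64 (1.56 to 1.73). The 12 endothelial markers summed to 106 FPKM in *Cdh5-CreERT2;CDK5f/f* mice and 108 FPKM in *CDK5f/f* mice. Of the 12, 8 had a ratio below 1 and 4 above, and the median log2 ratio of the 12 was -0.12. *Cldn5*, a tight junction gene, had 482 counts in *Cdh5-CreERT2;CDK5f/f* mice and 701 in *CDK5f/f* mice, a ratio of 0.708 (0.629 to 0.796). *Slc2a1*, *Ly6c1* and *Vwf* went the other way, with ratios of 1.18 (1.11 to 1.24), 1.19 (1.07 to 1.33) and 1.25 (1.11 to 1.41). *Cdk5* had 1257 counts in *Cdh5-CreERT2;CDK5f/f* mice and 1261 in *CDK5f/f* mice, which in RNA of the whole tissue does not check the deletion in endothelial cells. The part that these differences between the libraries have in the values below was not tested.

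Genes that lie side by side on a chromosome can be independent units with their own promoters, and many mammalian neighbours differ in where and when they are expressed. Some share a stretch of DNA more closely. They may overlap on opposite strands, follow each other on one strand with little sequence in between, or end close together. This stretch holds genes of many kinds, among them genes for receptors and postsynaptic proteins of neurons, nuclear proteins that package DNA or process RNA, and proteins of cilia and of the cytoskeleton.

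Promoter sequence is printed for *Dcdc2b*, *Iqcc*, *Gpatch3*, *Gpn2*, *Mfap2* and *Crocc*, which stand in groups of neighbours with lower values, for *Tmem234*, which overlaps one of these groups on the other strand, and for *Snhg12*, which had the lowest ratio. *Ccdc28b* and *Necap2*, of the same groups, are named only. Each line holds the 120 bases before the transcription start that RefSeq annotates on GRCm38.p6, 5′ to 3′ on the strand of the gene, and capitals mark any of the motifs named below. The RefSeq starts lie 0 to 55 bases from those of the deposited table. The windows are chr4:129614273-129614392 on the minus strand for *Dcdc2b*, chr4:129619094-129619213 on the minus strand for *Iqcc*, chr4:129600560-129600679 on the plus strand for *Tmem234*, chr4:133574625-133574744 on the plus strand for *Gpatch3*, chr4:133584253-133584372 on the plus strand for *Gpn2*, chr4:141010304-141010423 on the plus strand for *Mfap2*, chr4:141060546-141060665 on the minus strand for *Crocc* and chr4:132308558-132308677 on the plus strand for *Snhg12*.
Dcdc2b: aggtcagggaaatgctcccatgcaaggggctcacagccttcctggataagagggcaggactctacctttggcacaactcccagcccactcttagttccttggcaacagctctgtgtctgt
Iqcc: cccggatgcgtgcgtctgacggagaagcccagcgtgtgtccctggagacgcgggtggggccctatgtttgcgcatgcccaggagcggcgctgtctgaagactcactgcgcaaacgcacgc
Tmem234: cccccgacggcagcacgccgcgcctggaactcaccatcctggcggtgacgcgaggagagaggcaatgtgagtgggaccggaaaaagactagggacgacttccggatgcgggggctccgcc
Gpatch3: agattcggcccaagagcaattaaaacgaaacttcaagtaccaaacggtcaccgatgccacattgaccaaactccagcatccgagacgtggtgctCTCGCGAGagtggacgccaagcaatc
Gpn2: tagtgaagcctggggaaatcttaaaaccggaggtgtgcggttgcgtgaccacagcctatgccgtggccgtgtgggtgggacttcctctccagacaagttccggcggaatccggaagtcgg
Mfap2: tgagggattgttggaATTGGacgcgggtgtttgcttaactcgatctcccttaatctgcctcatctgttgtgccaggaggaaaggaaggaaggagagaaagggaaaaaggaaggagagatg
Crocc: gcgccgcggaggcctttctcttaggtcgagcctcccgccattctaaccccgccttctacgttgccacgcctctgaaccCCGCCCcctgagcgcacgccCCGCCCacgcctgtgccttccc
Snhg12: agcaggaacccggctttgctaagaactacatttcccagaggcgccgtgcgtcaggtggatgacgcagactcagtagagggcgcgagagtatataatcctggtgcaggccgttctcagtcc

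These windows differ in base composition. *Crocc* has 70% G and C and 13 CpG dinucleotides, and *Iqcc* has 66.7% and 13, whereas *Dcdc2b* has 55% and 0 and *Mfap2* has 48.3% and 3. The GC box GGGCGG, on either strand, stands 2 times in the window of *Crocc*, and *Mfap2* holds CCAAT once on the opposite strand. *Gpatch3* holds CTCGCGAG, a palindrome that was searched for after the sequences had been seen. Over the 250 bases before the start, the GC box was found in 7 of 19 promoters of genes past 1.5-fold lower, in 57.9% of the 240 promoters of all genes of the stretch and in 32.7% of the 32851 promoters of the whole annotation. CCAAT was found in 4 of the 19, in 35% of the stretch and in 33.8% overall. TATAAA was found in 0 of the 19, 5% and 12.4%, CACGTG in 2 of the 19, 9.17% and 6.02%, and CTCGCGAG in 1 of the 19, 1.67% and 0.761%. Promoters were matched for 176 of the 211 genes and for 14 of the 17 genes past 1.5-fold lower. The genes of the stretch had at least 100 counts, whereas the whole annotation was not limited by counts, so these shares come from unlike sets. A match says only that these letters are there.

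The levels are FPKM, the count of a gene scaled by its exonic length and by the total of the library. The ratio of each gene is the log2 ratio of FPKM + 1 in *Cdh5-CreERT2;CDK5f/f* mice over *CDK5f/f* mice, called the log2 ratio below, and a gene at least 1.5-fold apart on this scale (log2 0.585) is counted as past the limit. In the stretch, 17 genes were past 1.5-fold lower in *Cdh5-CreERT2;CDK5f/f* mice and 3 past 1.5-fold higher, and 191 were within. The share lower was 8.06%, against 0.839% of all genes, and the share higher was 1.42%, against 1.7% of all genes. The lower genes were *Snhg12*, *Hmgn2*, *Dcdc2b*, *Crocc*, *Iqcc*, *Aldh4a1*, *Hdac1*, *Gpatch3*, *Ccdc28b*, *Mfap2*, *Serinc2*, *Htr6*, *Necap2*, *Gpn2*, *Hp1bp3*, *Arhgef19* and *Kif17*. The higher genes were *Col8a2*, *Spocd1* and *Kazn*. In RNA of whole tissue, fewer cells of a type and less RNA per cell cannot be told apart.

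**Figure D1:**
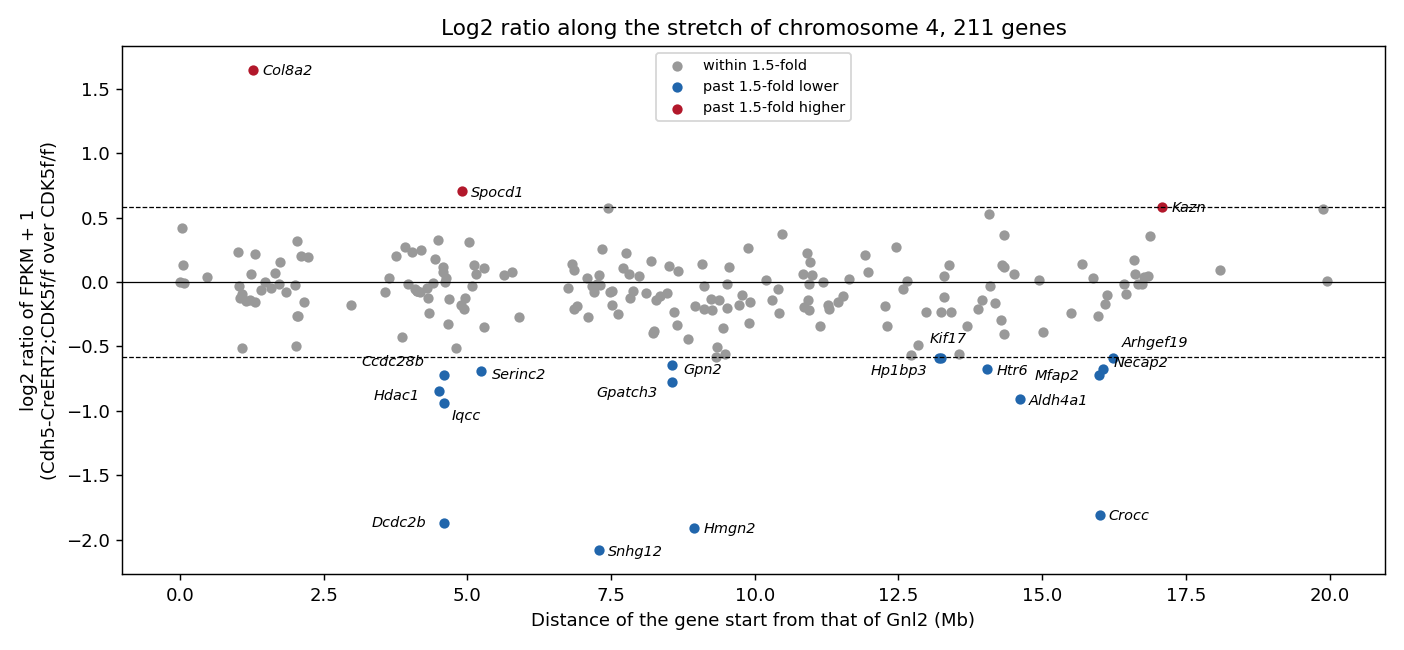
Log2 ratio of FPKM + 1 (vertical axis, *Cdh5-CreERT2;CDK5f/f* over *CDK5f/f*) of the 211 genes against the distance of each gene start from the start of *Gnl2*, the first gene of the stretch (horizontal axis, Mb). Each point is 1 gene, dashed lines mark 1.5-fold, and the 17 lower genes (blue), 8 of them next to another lower gene, lie among genes within 1.5-fold (grey), with *Snhg12*, *Hmgn2*, *Dcdc2b* and *Crocc* below the rest.

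The other 191 genes were within 1.5-fold on the FPKM + 1 scale, but some with low FPKM differed more by counts. *Vwa5b1* had a count ratio of 0.409 (0.306 to 0.543), and *Med18*, the other way, 1.82 (1.31 to 2.57). By counts per total, 24 of the 211 genes were past 1.5-fold lower (11.4%, against 2.51% of all genes). By the same measure 8 were past it higher (3.79%, against 3.81%). The middle of the 211 genes was shifted. Over the 211 genes the log2 ratio had a median of -0.07 and quartiles of -0.23 and 0.07, against a median of 0.00 over all genes. The ratio of counts was below 1 in 134 genes and above 1 in 77. The counting interval lay below 1 in 82 genes (38.9%, against 18.5% of all genes), above 1 in 33 (15.6%, against 20.5%), and held 1 in 96. The counts of the 211 genes summed to 321309 in *Cdh5-CreERT2;CDK5f/f* mice and 353981 in *CDK5f/f* mice, a ratio of 0.934. The genes with the highest levels were all within 1.5-fold. *Ncdn*, which encodes neurochondrin, had 799 FPKM in *Cdh5-CreERT2;CDK5f/f* mice and 808 FPKM in *CDK5f/f* mice. *Hpca*, which encodes the neuronal calcium sensor hippocalcin, had 514 FPKM in *Cdh5-CreERT2;CDK5f/f* mice and 534 FPKM in *CDK5f/f* mice. *Pink1*, a kinase gene of mitochondrial quality control, had 128 FPKM in *Cdh5-CreERT2;CDK5f/f* mice and 139 FPKM in *CDK5f/f* mice.

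Of the 17 genes past 1.5-fold lower, 8 stood next to another such gene and 9 stood alone. Counted from the start of the stretch, the first 5 Mb held 4 of 65 genes past 1.5-fold lower, those from 5 to 10 Mb held 5 of 69, those from 10 to 15 Mb 4 of 53, and those from 15 to 20 Mb 4 of 24. Within the last of these all 4 started between 16 and 18 Mb, among 16 genes. No gene past 1.5-fold lower started from 0 to 2 Mb (23 genes), from 2 to 4 Mb (15 genes), from 10 to 12 Mb (22 genes) or from 18 to 20 Mb (3 genes). Along the same chromosome, 3 of 153 genes (1.96%) were past 1.5-fold lower in the 20 Mb before the stretch, and 0 of 126 from 145 Mb to the end. The log2 ratio had a median of 0.00 before and 0.01 after the stretch.

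Blocks of 20 Mb with at least 50 genes were cut from all chromosomes, 110 in all. In the other 109 blocks the median share of genes past 1.5-fold lower was 0%, and 57 blocks had no such gene. The highest share among them was 5.45%, which is 3 of 55 genes on chromosome 12 from 25 Mb, followed by 4.92% (6 of 122) on chromosome 2 from 105 Mb. The median log2 ratio of the other blocks ranged from -0.08 to 0.08, so the median of the stretch lay near one end of that range but within it. These shares describe the blocks of a pair of libraries, and the stretch was picked on this contrast.

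**Figure D2:**
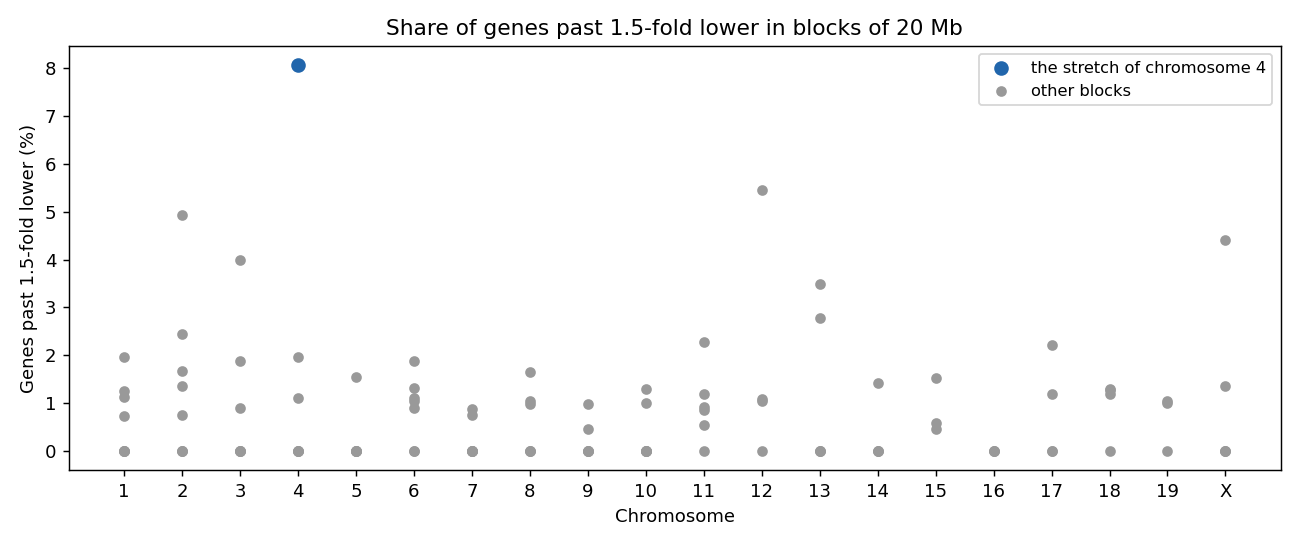
Share of genes past 1.5-fold lower in *Cdh5-CreERT2;CDK5f/f* mice (vertical axis, %) in blocks of 20 Mb with at least 50 genes, by chromosome (horizontal axis). Each point is 1 block; the stretch of chromosome 4 (blue) stands at 8.06%, and the 109 other blocks (grey) reach up to 5.45%.

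The group around *Dcdc2b* held 3 neighbours on the minus strand, from 129608331 to 129623947, a span of 15.6 kb. *Dcdc2b* encodes a protein with doublecortin domains, which bind microtubules in related proteins. It had 45 counts in *Cdh5-CreERT2;CDK5f/f* mice and 241 in *CDK5f/f* mice (1.74 and 9.04 FPKM), a ratio of 0.192 (interval 0.137 to 0.265). *Iqcc*, named for an IQ motif, had 172 counts in *Cdh5-CreERT2;CDK5f/f* mice and 397 in *CDK5f/f* mice, a ratio of 0.446 (0.371 to 0.535). *Ccdc28b* is known in human as a modifier gene of Bardet-Biedl syndrome, a disorder of cilia, and had 261 counts in *Cdh5-CreERT2;CDK5f/f* mice and 470 in *CDK5f/f* mice, a ratio of 0.572 (0.489 to 0.666). So the difference was largest at *Dcdc2b* and smaller at each next gene, and the 3 counting intervals for *Dcdc2b*, *Iqcc* and *Ccdc28b* stood in that order, with overlap only between those of *Iqcc* and *Ccdc28b*.

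On the plus strand, *Tmem234* spans all 3 of these genes. It encodes a predicted membrane protein and had 1192 counts in *Cdh5-CreERT2;CDK5f/f* mice and 1125 in *CDK5f/f* mice, a ratio of 1.09 (1.00 to 1.18). Its exons share 1.31% of the exonic bases of *Dcdc2b*, 11.9% of those of *Iqcc* and 15.0% of those of *Ccdc28b*. No source used here says whether the counting used strand, so reads from these shared bases cannot be assigned to one gene. Beyond the group, *Eif3i*, a subunit gene of a translation initiation factor, had 1337 counts in *Cdh5-CreERT2;CDK5f/f* mice and 1303 in *CDK5f/f* mice (ratio 1.06, 0.978 to 1.14), and *Txlna*, which encodes a syntaxin-binding protein, had 1412 counts in *Cdh5-CreERT2;CDK5f/f* mice and 1452 in *CDK5f/f* mice (ratio 1.00, 0.929 to 1.08). The genes on both sides of the group were thus at about equal counts per total.

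Near this group, *Hdac1*, a histone deacetylase gene, had 282 counts in *Cdh5-CreERT2;CDK5f/f* mice and 574 in *CDK5f/f* mice, a ratio of 0.506 (0.437 to 0.584). It follows *Marcksl1*, which encodes an actin-binding substrate of protein kinase C, after 0.119 kb, and *Marcksl1* stood the other way with 1022 counts in *Cdh5-CreERT2;CDK5f/f* mice and 833 in *CDK5f/f* mice, a ratio of 1.26 (1.15 to 1.39). *Hdac1* has a near-identical copy on chromosome 17, the predicted gene *Gm10093*, which differs in 9 of 1444 aligned bases. The copy had 166 counts in *Cdh5-CreERT2;CDK5f/f* mice and 44 in *CDK5f/f* mice, so its ratio lay on the other side of 1. Over both, the sum was 448 counts in *Cdh5-CreERT2;CDK5f/f* mice and 618 in *CDK5f/f* mice, a ratio of 0.746, which is -0.42 as the log2 of a count ratio and within 1.5-fold. The 90 aligned coding bases with the most differences are shown for both, on the strand of each gene (chr4:129522975-129523064 minus and chr17:78491974-78492063 plus, GRCm38). They are thus less alike than the aligned bases as a whole, and capitals mark the 6 bases that differ there.
Hdac1: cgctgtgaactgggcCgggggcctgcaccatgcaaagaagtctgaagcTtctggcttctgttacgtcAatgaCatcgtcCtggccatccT
Gm10093: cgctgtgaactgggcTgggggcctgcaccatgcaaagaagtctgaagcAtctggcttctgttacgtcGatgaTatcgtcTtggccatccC

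Of the 211 genes, 19 had a near-identical copy elsewhere, and no source used here says how reads with several matches were counted. *Hmgn2*, which encodes a nucleosome-binding protein, had 94 counts in *Cdh5-CreERT2;CDK5f/f* mice and 528 in *CDK5f/f* mice, a ratio of 0.183 (0.146 to 0.229). With its 12 copies, of which 8 had counts, the sum was 406 counts in *Cdh5-CreERT2;CDK5f/f* mice and 855 in *CDK5f/f* mice, a ratio of 0.489 (-1.03 as the log2 of a count ratio), still past 1.5-fold lower. *Nudc*, a gene of a dynein-associated protein, had 1932 counts in *Cdh5-CreERT2;CDK5f/f* mice and 1825 in *CDK5f/f* mice, and its copy *Nudc-ps1* on chromosome 8 had 299 in *Cdh5-CreERT2;CDK5f/f* mice and 73 in *CDK5f/f* mice. *Thrap3*, which encodes an RNA splicing and transcription cofactor, had 2149 counts in *Cdh5-CreERT2;CDK5f/f* mice and 2469 in *CDK5f/f* mice, and its copy *Gm5898* on chromosome 7 had 143 counts in *Cdh5-CreERT2;CDK5f/f* mice and 5 in *CDK5f/f* mice. Copies had counts for 14 of the 19 genes, and summed per gene they had more counts in *Cdh5-CreERT2;CDK5f/f* mice for 10, fewer for 3 and as many for 1. The copies of *Hmgn2* were among those with fewer, at 312 counts in *Cdh5-CreERT2;CDK5f/f* mice and 327 in *CDK5f/f* mice. Some entries on both sides rest on few counts. The copy of *Csf3r* had 5 counts in *Cdh5-CreERT2;CDK5f/f* mice and 0 in *CDK5f/f* mice, and those of *Ythdf2* had 0 and 1. For the pseudogene *Gm12966*, also among those with fewer, the copy is the protein-coding gene *Srsf5*. This tally was not made for genes outside the stretch. The aligned coding bases of *Nudc* and *Nudc-ps1* (chr4:133534441-133534530 minus and chr8:29286892-29286981 minus), again chosen for the most differences, differ at 1 of the 90 shown, in capitals.
Nudc: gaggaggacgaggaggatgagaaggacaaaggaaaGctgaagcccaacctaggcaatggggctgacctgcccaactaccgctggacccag
Nudc-ps1: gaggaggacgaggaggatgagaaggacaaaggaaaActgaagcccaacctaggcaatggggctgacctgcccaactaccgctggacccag

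*Gpatch3* and *Gpn2* form a pair on the plus strand, from 133574745 to 133591735, with 0.119 kb between them. *Gpatch3* encodes a protein with a G-patch, a domain found in RNA-processing proteins, and had 52 counts in *Cdh5-CreERT2;CDK5f/f* mice and 121 in *CDK5f/f* mice, a ratio of 0.442 (0.313 to 0.617). *Gpn2* encodes a GTPase of a family that takes part in RNA polymerase assembly, and had 104 counts in *Cdh5-CreERT2;CDK5f/f* mice and 183 in *CDK5f/f* mice, a ratio of 0.585 (0.455 to 0.748). Their intervals overlapped. *Nudc* before the pair had a ratio of 1.09 (1.02 to 1.16), and *Zdhhc18*, a palmitoyltransferase gene after it, had 626 counts in *Cdh5-CreERT2;CDK5f/f* mice and 773 in *CDK5f/f* mice and a ratio of 0.833 (0.749 to 0.927).

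The group around *Crocc* held 3 neighbours from 141010418 to 141078357, a span of 67.9 kb. *Crocc* encodes rootletin, the main protein of the ciliary rootlet and part of the linker between centrosomes. It had 1106 counts in *Cdh5-CreERT2;CDK5f/f* mice and 4379 in *CDK5f/f* mice (7.08 and 27.2 FPKM), a ratio of 0.260 (0.243 to 0.278). Among the genes past 1.5-fold lower it had the narrowest interval but for *Hp1bp3*, on a log scale. *Mfap2*, which encodes a microfibril protein of elastic fibres, runs towards it on the other strand and ends 0.653 kb from it. *Mfap2* had 67 counts in *Cdh5-CreERT2;CDK5f/f* mice and 129 in *CDK5f/f* mice, a ratio of 0.535 (0.392 to 0.724). *Necap2*, a gene of clathrin-mediated endocytosis, had 406 counts in *Cdh5-CreERT2;CDK5f/f* mice and 703 in *CDK5f/f* mice, a ratio of 0.594 (0.525 to 0.673). The genes flanking this group lay below 1 too, but within 1.5-fold. *Atp13a2*, a lysosomal polyamine transporter gene, had 3631 counts in *Cdh5-CreERT2;CDK5f/f* mice and 4521 in *CDK5f/f* mice (ratio 0.827, 0.791 to 0.864), and *Szrd1* had 627 counts in *Cdh5-CreERT2;CDK5f/f* mice and 734 in *CDK5f/f* mice (ratio 0.879, 0.789 to 0.979).

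*Hp1bp3* and *Kif17* lie close together on the plus strand. *Sh2d5* starts just before *Kif17* on the same strand, lies otherwise within its span and shares 74 exonic bases with it (1.62% of those of *Kif17*), so reads from these bases cannot be assigned to one gene. *Hp1bp3* encodes a protein related to linker histones that binds heterochromatin protein HP1, and had 3022 counts in *Cdh5-CreERT2;CDK5f/f* mice and 4773 in *CDK5f/f* mice, a ratio of 0.652 (0.622 to 0.682). *Kif17* encodes a kinesin motor of dendrites and cilia, and had 399 counts in *Cdh5-CreERT2;CDK5f/f* mice and 661 in *CDK5f/f* mice, a ratio of 0.621 (0.547 to 0.704). *Sh2d5*, which encodes an adaptor protein with an SH2 domain, stayed within 1.5-fold at 1463 counts in *Cdh5-CreERT2;CDK5f/f* mice and 1780 in *CDK5f/f* mice, a ratio of 0.846 (0.789 to 0.907). *Hp1bp3* and *Kif17* were both near the limit, with log2 ratios of -0.59. *Eif4g3* before them had a ratio of 0.846 (0.815 to 0.879), and *Ddost*, which encodes a subunit of the oligosaccharyltransferase, after them had 1.04 (0.965 to 1.11).

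**Figure D3:**
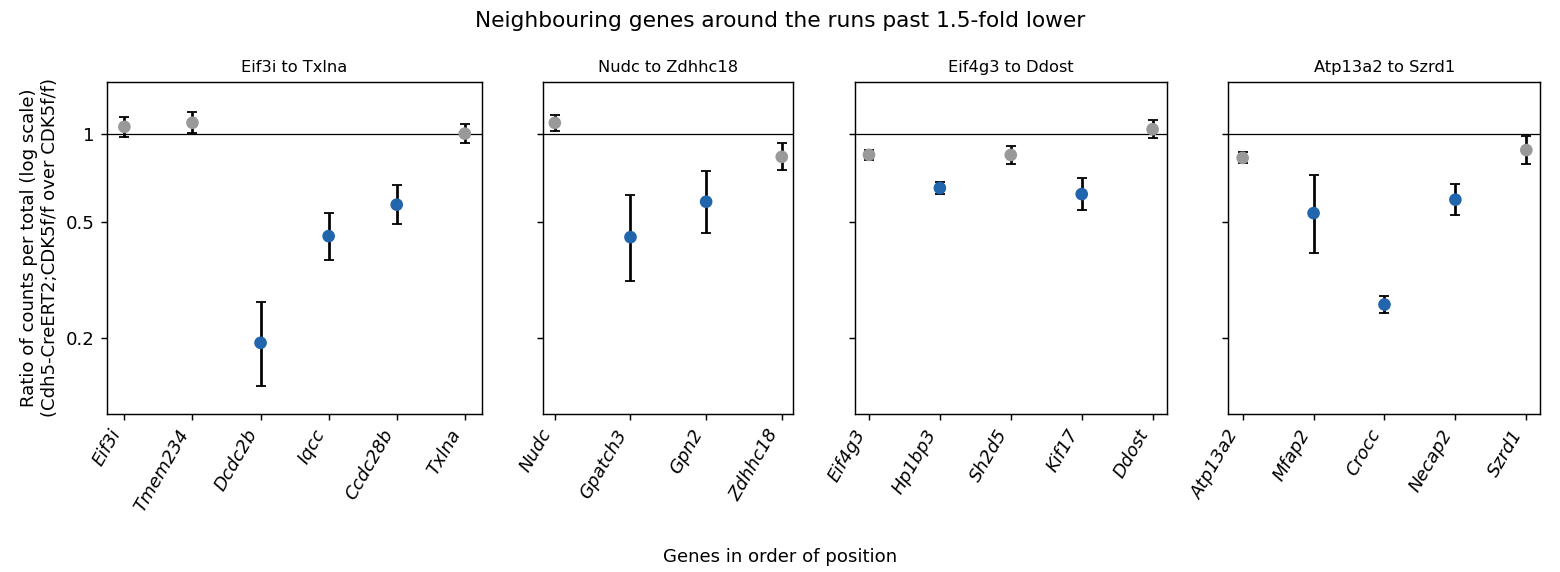
Ratio of counts per library total (vertical axis, log scale, *Cdh5-CreERT2;CDK5f/f* over *CDK5f/f*) of neighbouring genes in order of position (horizontal axis), with bars for the exact 95% counting interval, in 4 places of the stretch. Blue points are past 1.5-fold lower on the FPKM + 1 scale and grey points are within; the flanking genes have ratios from 0.827 (*Atp13a2*) to 1.09 (*Nudc*, *Tmem234*).

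The other genes past 1.5-fold lower stood alone among neighbours within the limit. *Snhg12*, a long non-coding RNA gene whose introns host small nucleolar RNAs, had 25 counts in *Cdh5-CreERT2;CDK5f/f* mice and 260 in *CDK5f/f* mice (0.55 and 5.56 FPKM), a ratio of 0.099 (0.0629 to 0.149). It had the lowest ratio of the 211 genes, and its exonic bases overlap annotated small nucleolar RNA genes over 19.6% of their length. Next to it, *Taf12*, a gene of a subunit of the general transcription factor TFIID, had 298 counts in *Cdh5-CreERT2;CDK5f/f* mice and 311 in *CDK5f/f* mice, and *Trnau1ap*, a gene for selenoprotein synthesis, had 269 counts in *Cdh5-CreERT2;CDK5f/f* mice and 265 in *CDK5f/f* mice, so *Snhg12* differed from both sides. *Dhdds*, a dolichol synthesis gene beside *Hmgn2*, had 1139 counts in *Cdh5-CreERT2;CDK5f/f* mice and 1341 in *CDK5f/f* mice, a ratio of 0.874 (0.807 to 0.947).

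*Aldh4a1*, whose enzyme takes part in proline breakdown in mitochondria, had 146 counts in *Cdh5-CreERT2;CDK5f/f* mice and 366 in *CDK5f/f* mice, a ratio of 0.411 (0.337 to 0.499). It overlaps the predicted gene *Gm21969* over 32.5% of its exonic bases, and that gene had 0 counts in *Cdh5-CreERT2;CDK5f/f* mice and 6 in *CDK5f/f* mice. *Serinc2*, named for serine incorporation into membrane lipids, had 136 counts in *Cdh5-CreERT2;CDK5f/f* mice and 254 in *CDK5f/f* mice, a ratio of 0.551 (0.444 to 0.681). *Htr6*, a serotonin receptor gene, had 92 counts in *Cdh5-CreERT2;CDK5f/f* mice and 179 in *CDK5f/f* mice, a ratio of 0.529 (0.407 to 0.684). It lies between *Tmco4*, with 83 counts in *Cdh5-CreERT2;CDK5f/f* mice and 101 in *CDK5f/f* mice (ratio 0.846, 0.625 to 1.14), and *Nbl1*, which encodes a secreted BMP antagonist and had 1790 counts in *Cdh5-CreERT2;CDK5f/f* mice and 1269 in *CDK5f/f* mice (ratio 1.45, 1.35 to 1.56). *Arhgef19*, a guanine nucleotide exchange factor gene, had 279 counts in *Cdh5-CreERT2;CDK5f/f* mice and 473 in *CDK5f/f* mice, a ratio of 0.607 (0.522 to 0.705).

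**Figure D4:**
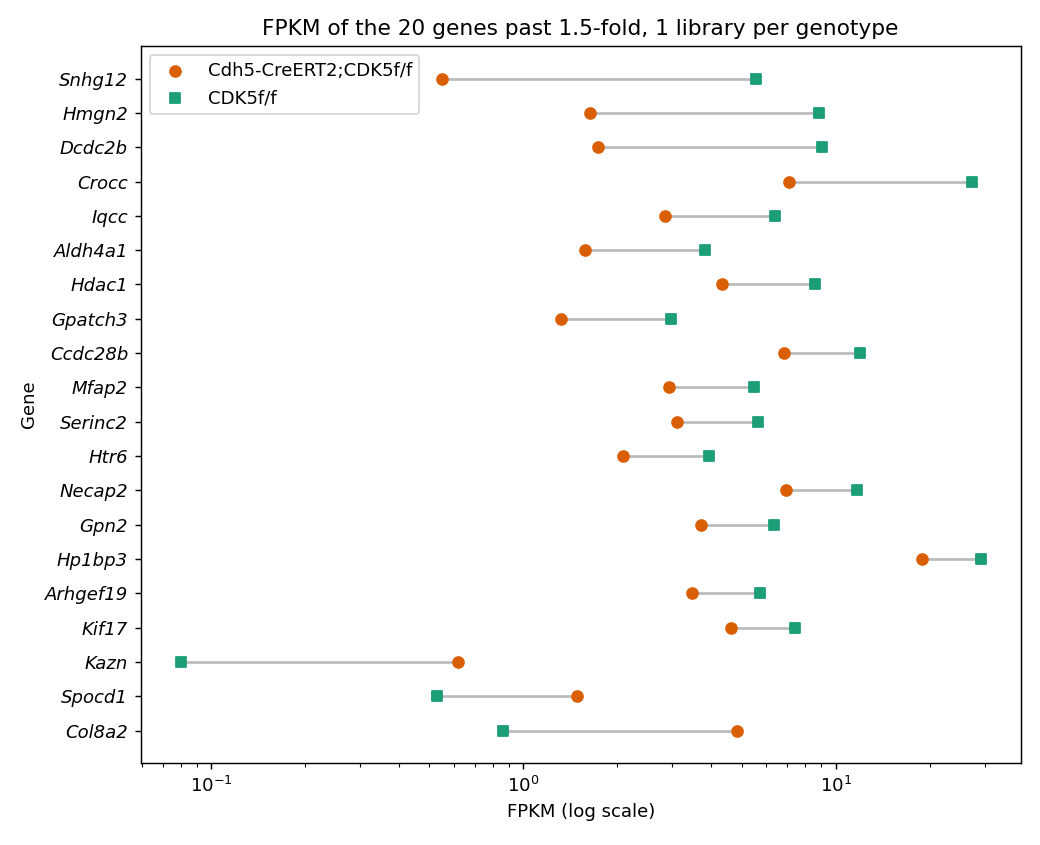
Level of each of the 20 genes past 1.5-fold (horizontal axis, FPKM on a log scale) in *Cdh5-CreERT2;CDK5f/f* mice (circles) and *CDK5f/f* mice (squares), 1 library each, with genes ordered by log2 ratio from the lowest at the top. *Crocc* (7.08 and 27.2 FPKM) and *Hp1bp3* (19.0 and 29.1 FPKM) have the highest levels; *Kazn* (0.62 and 0.08 FPKM) has the lowest.

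The genes past 1.5-fold higher were weakly expressed in *CDK5f/f* mice. *Col8a2*, a chain of collagen VIII found in the basement membrane of the cornea and in vessel walls, had 409 counts in *Cdh5-CreERT2;CDK5f/f* mice and 75 in *CDK5f/f* mice (4.82 and 0.86 FPKM), a ratio of 5.61 (4.38 to 7.28). *Spocd1*, known in mice for piRNA-guided DNA methylation in the male germ line, had 91 counts in *Cdh5-CreERT2;CDK5f/f* mice and 33 in *CDK5f/f* mice, a ratio of 2.84 (1.89 to 4.36). *Kazn*, which encodes kazrin of cell junctions, had 126 counts in *Cdh5-CreERT2;CDK5f/f* mice and 16 in *CDK5f/f* mice, a ratio of 8.10 (4.80 to 14.6), and lay exactly on the limit of 1.5-fold, since the added 1 outweighs its FPKM of 0.62 in *Cdh5-CreERT2;CDK5f/f* mice and 0.08 in *CDK5f/f* mice. Their neighbours stayed within 1.5-fold. Beside *Col8a2*, *Trappc3* had 1032 counts in *Cdh5-CreERT2;CDK5f/f* mice and 1013 in *CDK5f/f* mice, and *Adprhl2* had 577 counts in *Cdh5-CreERT2;CDK5f/f* mice and 505 in *CDK5f/f* mice. Whether these values are linked to the higher choroid plexus markers of the *Cdh5-CreERT2;CDK5f/f* library given above was not tested.

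At the limit the genes formed no gap. Just inside on the lower side were *Kif17*, *Arhgef19* and *Hp1bp3*, with a log2 ratio of -0.59 each. Just outside were *Slc30a2*, a zinc transporter gene, with 49 counts in *Cdh5-CreERT2;CDK5f/f* mice and 110 in *CDK5f/f* mice (log2 -0.58), *Alpl*, the tissue-nonspecific alkaline phosphatase gene, with 68 counts in *Cdh5-CreERT2;CDK5f/f* mice and 141 in *CDK5f/f* mice (-0.57), and *Paqr7*, a membrane progestin receptor gene, with 1091 counts in *Cdh5-CreERT2;CDK5f/f* mice and 1696 in *CDK5f/f* mice (-0.56). By counts per total, *Slc30a2* had a ratio of 0.458 (0.32 to 0.648), *Alpl* 0.496 (0.366 to 0.667) and *Paqr7* 0.662 (0.613 to 0.715). *Slc30a2* and *Alpl* were thus further from 1 by counts than *Hp1bp3* at 0.652, and the added 1 weighs more at their low FPKM. On the higher side, *Med18* of the Mediator complex, with 101 counts in *Cdh5-CreERT2;CDK5f/f* mice and 57 in *CDK5f/f* mice (log2 0.57), *Dhrs3*, a retinaldehyde reductase gene, with 381 counts in *Cdh5-CreERT2;CDK5f/f* mice and 246 in *CDK5f/f* mice (0.57), and *Nbl1* (0.52) were just outside.

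Lists of genes by function, 9 in all, cover 169 of the 211 genes. Their counts stand beside the 8.06% past 1.5-fold lower in the whole stretch and 0.839% of all genes, and beside counting intervals below 1 in 38.9% of the stretch and 18.5% of all genes, and above 1 in 15.6% and 20.5%. The list of cytoskeleton and cilia genes had 4 of 20 past 1.5-fold lower (*Dcdc2b*, *Crocc*, *Ccdc28b* and *Arhgef19*) and 1 higher (*Kazn*), with a median log2 ratio of -0.14. Its counting intervals lay below 1 in 11 genes (55%) and above 1 in 4 (20%). In that list *Cdc42*, a small GTPase gene, had 56.7 FPKM in *Cdh5-CreERT2;CDK5f/f* mice and 72.2 FPKM in *CDK5f/f* mice. *Fhad1* stood the other way, with 1.77 FPKM in *Cdh5-CreERT2;CDK5f/f* mice and 1.16 FPKM in *CDK5f/f* mice. The 5 markers of ependyma, cells that carry motile cilia, summed to 19.7 FPKM in *Cdh5-CreERT2;CDK5f/f* mice and 16.2 FPKM in *CDK5f/f* mice, with 4 of 5 above a ratio of 1 and none at 0. Of these 4, the intervals of *Foxj1* and *Rsph1* lay above 1 and those of *Ccdc153* and *Dynlrb2* held 1. *Tmem212* went the other way, with a ratio of 0.547 (0.323 to 0.908). The list of chromatin, transcription and DNA replication genes had 3 of 29 past 1.5-fold lower (*Hmgn2*, *Hdac1* and *Hp1bp3*), a median of -0.05, and *Hdac1* only without its copy. Its counting intervals lay below 1 in 8 genes (27.6%) and above 1 in 6 (20.7%). Among the rest of that list, *Arid1a* of the SWI/SNF remodelling complex had 12.9 FPKM in *Cdh5-CreERT2;CDK5f/f* mice and 12.1 FPKM in *CDK5f/f* mice, and *Rbbp4*, a histone-binding protein gene, had 9.67 FPKM in *Cdh5-CreERT2;CDK5f/f* mice and 10.02 FPKM in *CDK5f/f* mice.

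Among the neuronal receptors, channels and synaptic proteins, 2 of 24 were past 1.5-fold lower (*Htr6* and *Kif17*, 8.33%), none higher, and the median log2 ratio was -0.06. *Dlgap3*, a postsynaptic scaffold gene, had 66.5 FPKM in *Cdh5-CreERT2;CDK5f/f* mice and 74.4 FPKM in *CDK5f/f* mice, and *Adgrb2*, an adhesion receptor gene, had 106 FPKM in *Cdh5-CreERT2;CDK5f/f* mice and 116 FPKM in *CDK5f/f* mice. *Igsf21*, a synaptic adhesion gene, had 12.2 FPKM in *Cdh5-CreERT2;CDK5f/f* mice and 16.2 FPKM in *CDK5f/f* mice (log2 -0.38), and *Stmn1*, which encodes the microtubule regulator stathmin, had 54.2 FPKM in *Cdh5-CreERT2;CDK5f/f* mice and 69.7 FPKM in *CDK5f/f* mice (log2 -0.36), the largest differences there within 1.5-fold. In this list the counting interval lay below 1 in 12 genes (50%) and above 1 in 2 (8.33%).

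Of the RNA processing and translation genes, 2 of 28 were past 1.5-fold lower (*Snhg12* and *Gpatch3*, 7.14%), with a median of -0.11, and 14 had intervals below 1 (50%) against 2 above. *Rsrp1*, an arginine and serine rich protein gene, had 118 FPKM in *Cdh5-CreERT2;CDK5f/f* mice and 148 FPKM in *CDK5f/f* mice. *Sfpq*, a splicing factor gene, had 45.4 FPKM in *Cdh5-CreERT2;CDK5f/f* mice and 46.1 FPKM in *CDK5f/f* mice, close to equal. Membrane traffic, ER and glycan enzymes had 2 of 28 past 1.5-fold lower (*Serinc2* and *Necap2*, 7.14%), a median of -0.15, and 15 intervals below 1 (53.6%) against 2 above. *Tmem50a* stood the other way within that list, with 58.4 FPKM in *Cdh5-CreERT2;CDK5f/f* mice and 48.5 FPKM in *CDK5f/f* mice.

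The mitochondrial list had 1 of 13 past 1.5-fold lower (*Aldh4a1*, 7.69%), and the ubiquitin, proteasome and autophagy list had 0 of 16, with medians of -0.03 each. Counting intervals lay below 1 in 4 genes of the mitochondrial list (30.8%) and above 1 in 0. In the ubiquitin list they lay below 1 in 3 genes (18.8%) and above 1 in 4 (25%). The largest differences in the ubiquitin list were those of *Trim62*, at 3.32 FPKM in *Cdh5-CreERT2;CDK5f/f* mice and 4.80 FPKM in *CDK5f/f* mice, and *Ubxn10*, at 0.42 FPKM in *Cdh5-CreERT2;CDK5f/f* mice and 0.80 FPKM in *CDK5f/f* mice. Extracellular matrix and vessel wall genes went both ways, with 1 of 9 lower (*Mfap2*), 1 higher (*Col8a2*) and a median of 0.06. The counting interval lay below 1 in 3 of the 9 (33.3%) and above 1 in 4 (44.4%). In that list *Ece1*, the endothelin-converting enzyme gene, had 6.03 FPKM in *Cdh5-CreERT2;CDK5f/f* mice and 8.85 FPKM in *CDK5f/f* mice, and *Extl1*, a glycosyltransferase gene, had 13.9 FPKM in *Cdh5-CreERT2;CDK5f/f* mice and 20.1 FPKM in *CDK5f/f* mice. *Nbl1*, *Col16a1* and *Hspg2* stood the other way within the limit. They had 46.6, 4.44 and 1.40 FPKM in *Cdh5-CreERT2;CDK5f/f* mice and 32.1, 3.38 and 0.99 FPKM in *CDK5f/f* mice. Of the 18 genes of the immune list, 2 are among the 211, *Laptm5* and *Csf3r*, and both were within 1.5-fold. The interval of *Laptm5* lay below 1 and that of *Csf3r* above 1.

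**Figure D5:**
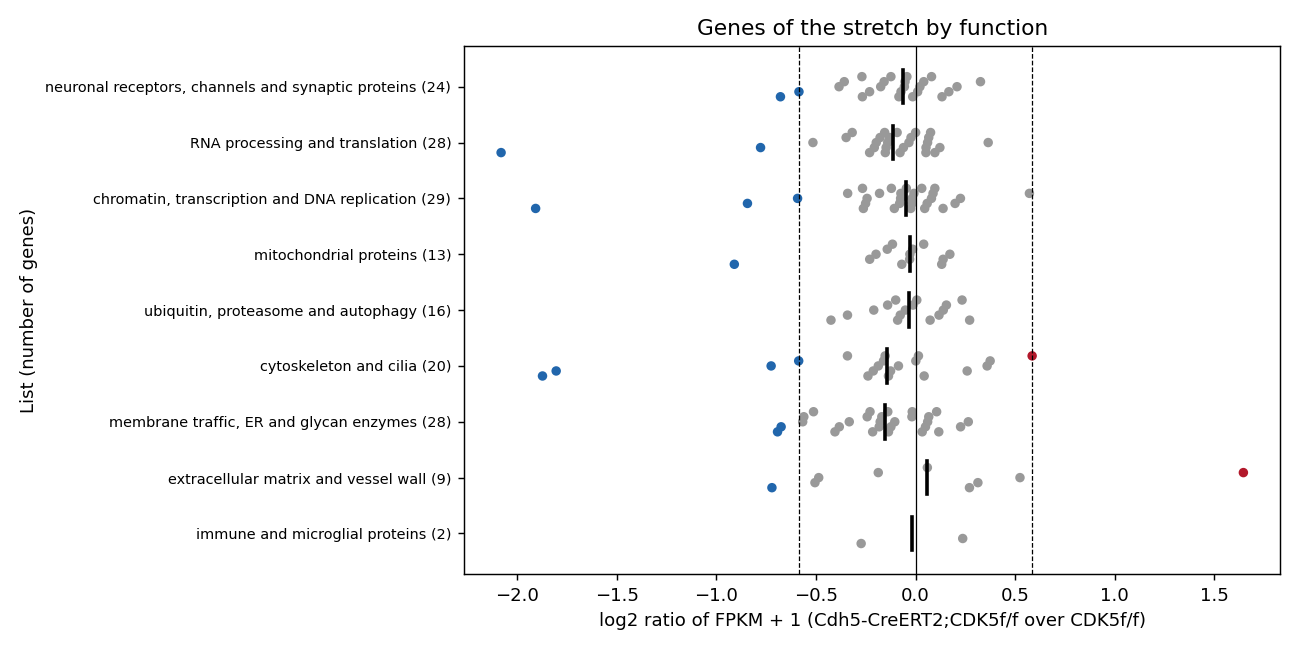
Log2 ratio of FPKM + 1 (horizontal axis, *Cdh5-CreERT2;CDK5f/f* over *CDK5f/f*) of the genes of each functional list (vertical axis, number of genes in brackets). Each point is 1 gene, black bars are list medians, from -0.15 to 0.06, dashed lines mark 1.5-fold, and blue and red points lie past it.

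The genes past 1.5-fold lower were compared with the other 194 in features that the position did not use. They lay on both strands, 8 on plus and 9 on minus, as did the others with 93 and 101. Their exonic length had a median of 3060 bases, against 4240 bases in the others, and their span on the chromosome one of 11.8 kb against 26.5 kb. Their median level in *CDK5f/f* mice was 6.4 FPKM, against 9.5 FPKM. Their median count over both libraries was 569, against 1450. Exons of another gene overlapped 6 of the 17, against 50 of the 194. The stretch was also divided into 3 groups of like size by the mean FPKM of both libraries. A lower value in *Cdh5-CreERT2;CDK5f/f* mice itself brings down this mean and the count over both libraries. Neither is thus independent of the ratio. Past 1.5-fold lower were 10 of the 71 genes with the lowest levels, 5 of the 69 in the middle and 2 of the 71 with the highest. The counting interval lay below 1 in 28 genes with low, 24 with middle and 30 with high levels. All genes were not divided in this way, so whether the smaller share at higher levels is particular to the stretch was not tested. The share of all genes past 1.5-fold lower was 0.839%, and 0.487% with a count minimum of 500.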

How the data were processed

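Hippocampal RNA-seq of 2 libraries was used, 1 per genotype. The authors deposited raw counts per gene and FPKM, which can be recomputed from the count, the exonic length and the library total (within 0.0051 in all 55573 rows). HISAT2 2.0.1, cutadapt 1.9.1, DESeq2, HTSeq 0.6.1 and build mm9 are named in the submitters' processing notes, but the deposited coordinates are those of GRCm38 (of 55480 identifiers shared with GENCODE M21, 55304 have the same start and end). Ratios of deposited FPKM values were taken on the log2 scale after adding 1, with the exact conditional 95% interval of the count ratio (Clopper-Pearson). BLAST 2.17.0 was used to find copies of a transcript elsewhere (95% identity over 200 bases or more, and 50% or more of whichever transcript is shorter). Scripts used pandas 2.3.3, scipy 1.17.1, numpy 2.4.6, matplotlib 3.10.9 and Python 3.11.15, and were tested on simulated data.

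The members, the 9 lists and the alternatives (pseudocount, count minimum, scaling, copies, overlapping genes, fold limit) were chosen with earlier results of these data known. Genes were named if past 1.5-fold, among the 3 nearest the limit on each side, next to a gene past it, among the 10 highest by FPKM, or among the 3 largest ratios of a list. *Thrap3*, *Gm5898*, *Cdc42*, *Arid1a*, *Rbbp4*, *Sfpq*, *Tmem50a*, *Ythdf2* and *Srsf5* were named after their values had been seen. The same is true of *Stmn1*, *Ece1*, *Extl1*, *Col16a1*, *Hspg2* and *Vwa5b1*. It is also true of the markers *Slc2a1*, *Ly6c1*, *Vwf*, *Prox1*, *Wfs1*, *Foxj1*, *Rsph1*, *Ccdc153*, *Dynlrb2*, *Tmem212*, *Prl*, *Gh*, *Tshb*, *Pomc* and *Lhb*. Choroid plexus, pituitary, endothelial, neuronal and ependymal markers were checked as lists.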

Additional observations from a re-analysis of the deposited data

How the results depend on the processing

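The median log2 ratio of the stretch stayed between -0.08 and -0.06 under all alternatives run. The count of 17 genes past 1.5-fold lower was 10 of 164 with a count minimum of 500 (0.487% of all genes then), 11 of 155 without genes that overlap another gene, and 4 at a limit of 2-fold (0.206% of all genes). It was 24 with a pseudocount of 0.1 and with counts per total, where 2.19% and 2.51% of all genes were past the limit. The count of 3 genes higher was 7 with a pseudocount of 0.1 (3.32%, against 3.37% of all genes) and 8 with counts per total (3.79%, against 3.81%). It was 0 with a count minimum of 500 (0.964% of all genes) and 1 at 2-fold (0.474%, against 0.721% of all genes). Other alternatives gave 15 to 21 lower and 2 to 4 higher genes. Where it was taken for these, the share of all genes was 0.839% to 1.26% lower and 1.69% to 1.87% higher. It was not taken for the settings without overlapping genes, without genes with a copy, or with protein-coding genes only. *Kazn* was lost when ratios were scaled by the median of all genes and with an FPKM minimum of 1. With fewer genes kept, genes of low counts drop out by construction, and the pseudocount of 1 brings them nearer to equal levels. Of 73 named genes, none past 1.5-fold changed sign, and among the rest *Txlna*, at equal levels, did under the scaling (0.0010 as reported, -0.0018 scaled); 7 moved with a pseudocount of 0.1 by more than the distance between the count ratio and the bound of its interval on that side, all away from 0, and of the 7 with copies *Hdac1*, *Hmgn2* and *Nudc* moved with the copies summed. No paired analysis was possible because each genotype has 1 library, and no library could be left out. Depth limits the precision of genes with few counts, such as *Snhg12*, *Dcdc2b* and *Kazn*.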
